A study of Homo sapiens with 24 samples.

Results

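The genes described here are those whose symbol begins with SLC1A, SLC3A, SLC6A, SLC7A, SLC36A, SLC38A or SLC43A, the prefixes of the solute carrier families that hold most plasma membrane amino acid transporters. RefSeq lists 82 human symbols with these prefixes, 61 of them protein-coding. The array annotation used here named a probe set for 2 of the 82, out of 14884 genes measured in all. They were SLC38A12, a protein-coding gene also known as TMEM104, and SLC7A11-AS1, a long non-coding RNA. The other 80, including SLC7A11, SLC3A2, SLC7A5, SLC1A5, SLC38A2 and SLC7A1, were not analysed here. The values below therefore describe 1 member of the SLC38 family and 1 antisense transcript, and they are not a description of amino acid transporters as a class.

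Amino acid transporters of these families bring glutamine, leucine, cystine and other amino acids into the cell, often in exchange for an amino acid inside or together with sodium. SLC38 proteins are multi-pass membrane proteins, and their best known members carry small neutral amino acids such as glutamine. SLC38A12 belongs to the group by its symbol, and its substrate is not stated here. SLC7A11, the gene that SLC7A11-AS1 overlaps, encodes the light chain of the antiporter that takes up cystine in exchange for glutamate. It is a known target of the transcription factor ATF4, which liver cells use when amino acids run short.

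The study profiled RNA from HepG2 cells, a line derived from a human hepatocellular carcinoma, on 24 arrays that fall into 8 groups. BRD8518, a compound for which the sources used here give only the code, was given at 1 uM for 1 h (3 arrays), 6 h (2 arrays) or 24 h (3 arrays). The cytokine oncostatin M (OSM) was given at 100 ng/mL for 1 h (3 arrays) or 24 h (3 arrays), and the DMSO controls comprised 3 arrays at 1 h, 4 at 6 h and 3 at 24 h. All wells held the same final DMSO concentration. Whether replicate arrays stand for separate cultures is not stated in the labels, and the p-values below cover the array-to-array spread alone, which may be technical. The 6 hepatocyte genes measured, ALB and AFP among them, stood between 7.76 (APOA1) and 12.54 (ALB) over the arrays. The markers of other cell types were not uniformly low. Of 5 macrophage genes, CD163, MARCO and CD14 stood between 3.38 and 6.08, but CD68 stood at 9.44 to 10.79 and LYZ at 11.99 to 12.34. The 3 endothelial genes, KDR, VWF and PECAM1, stood between 4.03 and 5.96. Of 4 cholangiocyte genes KRT19, EPCAM and SOX9 stood between 7.76 and 10.98, and KRT7 at 4.56 to 5.44. The stellate or fibroblast gene DES stood at 5.15 to 6.79, and the neuron genes SYP at 5.50 to 6.01 and STMN2 at 4.19 to 4.93. The 4 DMSO arrays at 6 h were the least alike. Their mean correlations to their own group were 0.977 for replicate 2 and 0.988 to 0.990 for the others. In every other group these correlations were 0.995 or more.

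Levels are log2 values on the RMA scale, and a change is a difference of group means on that scale with its standard error (SE). A gene is said to have risen or fallen where its Benjamini-Hochberg adjusted p, from a limma fit of all 24 arrays over all genes, was under 0.05. Each member was read by 1 probe set. RMA values carry no detection calls, so it is not known here whether SLC7A11-AS1, at 4.08 to 5.15, lay above background. SLC38A12 ran from 8.58 to 9.08 over the 24 arrays. Its residual SD of 0.068 was under the median of 0.142 over all genes, and that of SLC7A11-AS1 was 0.155.

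SLC7A11-AS1 rose after 24 h of BRD8518, 1.56-fold, and was higher there than in any other group. The 3 BRD8518 arrays read 5.15, 4.80 and 4.83, against 4.30, 4.45 and 4.10 in the 3 DMSO arrays of 24 h. The groups did not overlap, and the lowest BRD8518 array stood above the highest of the other 21 arrays of the series, an OSM array at 4.70. The mean was 4.93 ± 0.19 with BRD8518 and 4.28 ± 0.18 with DMSO (SD, n = 3 each), a log2 change of 0.65 with an SE of 0.12 and a 95% confidence interval of 0.39 to 0.90 (limma, Benjamini-Hochberg adjusted p = 0.00025). In this comparison 27.7% of all genes passed, and 650 of 14884 genes had a higher change. Here 1 of the 2 members was called.

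**Figure D1:**
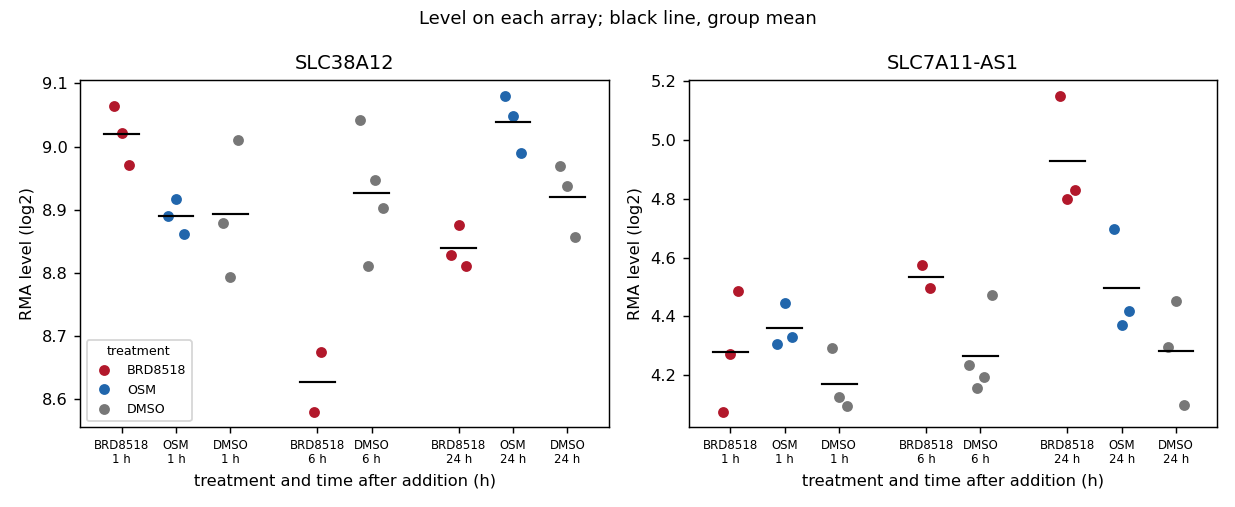
RMA level (log2, vertical axis, which does not start at 0) of SLC38A12 and SLC7A11-AS1 on each of the 24 arrays, by treatment and time; a point is an array and a black line the group mean. SLC7A11-AS1 was highest with BRD8518 at 24 h (4.80 to 5.15), and SLC38A12 lowest with BRD8518 at 6 h (8.58 and 8.68).

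The rise of SLC7A11-AS1 at 24 h kept its call when any of the 6 arrays was left out, with changes of 0.53 to 0.73. The array titles carry a position letter whose meaning is not stated, and DMSO replicate 3 was the array of this comparison with another letter than the rest. Without it, and so within letter A alone, the change was 0.55 (limma, Benjamini-Hochberg adjusted p = 0.0031). BRD8518 replicate 1, at 5.15, lay above replicates 2 and 3, and the change without it was 0.53 (adjusted p = 0.0034).

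At the earlier times of BRD8518 treatment SLC7A11-AS1 did not pass the test. At 6 h the 2 BRD8518 arrays read 4.58 and 4.50, against 4.24, 4.15, 4.19 and 4.47 in the 4 DMSO arrays. Both BRD8518 arrays lay above all DMSO arrays, by 0.02 between the nearest 2, and the change of 0.27 (SE 0.13) had an adjusted p of 0.19 in limma. At 1 h the BRD8518 arrays read 4.08, 4.27 and 4.49, against 4.29, 4.13 and 4.09 with DMSO. These groups overlapped, and the change was 0.11 (SE 0.12; limma, Benjamini-Hochberg adjusted p = 1.0). The BRD8518 effect at 24 h minus that at 6 h was 0.37 (SE 0.18; limma, Benjamini-Hochberg adjusted p = 0.22), so a difference between the effects at these times was not shown.

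With OSM, SLC7A11-AS1 did not pass at either time. At 24 h the OSM arrays read 4.70, 4.37 and 4.42, against the same DMSO arrays of 4.10 to 4.45, and the groups overlapped. The change was 0.21, with a 95% confidence interval of −0.04 to 0.47 (limma, Benjamini-Hochberg adjusted p = 0.37). At 1 h the OSM arrays read 4.31, 4.44 and 4.33, all above the DMSO arrays of 4.09 to 4.29, for a change of 0.19 (SE 0.12; limma, Benjamini-Hochberg adjusted p = 0.66). Set against OSM directly at 24 h, SLC7A11-AS1 was 0.43 higher with BRD8518, with an SE of 0.12 (limma, Benjamini-Hochberg adjusted p = 0.011). The 2 groups of arrays did not overlap, and 23.2% of all genes passed in this comparison. The call for SLC7A11-AS1 was lost without BRD8518 replicate 1 (0.32), OSM replicate 2 (0.37) or OSM replicate 3 (0.39).

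RefSeq places SLC7A11-AS1 across SLC7A11 and across a further long non-coding gene, LINC00616, which has probe sets of its own here. LINC00616 was chosen for this overlap, outside the rule for naming genes. It moved the other way at 24 h of BRD8518. Its arrays read 2.74, 3.28 and 2.88 with BRD8518, against 5.04, 5.05 and 4.67 with DMSO, a log2 change of −1.95 with an SE of 0.31 (limma, Benjamini-Hochberg adjusted p = 3.0e-05). RMA gives no detection calls, so it is not known here whether its BRD8518 arrays lay above background, and the size of its change is uncertain. With the mean of its probe sets in place of the brightest the change was −1.25. At 6 h its arrays read 3.63 and 3.01 with BRD8518, against 5.08, 3.51, 5.13 and 4.37 with DMSO, and the groups overlapped. The change at 6 h was −1.20 (SE 0.33; limma, Benjamini-Hochberg adjusted p = 0.014), or −0.66 with the mean of its probe sets. This call was lost without BRD8518 replicate 2 (−0.89) and when the model held only the 6 arrays of that time. No source used here states which strand the probes read, so signal from SLC7A11 and from its antisense transcript cannot be told apart.

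SLC38A12 fell after 6 h of BRD8518, to 0.813 times its DMSO level. The 2 BRD8518 arrays read 8.58 and 8.68, against 9.04, 8.81, 8.95 and 8.90 in the 4 DMSO arrays. The groups did not overlap, and both BRD8518 arrays were the lowest of the 24. The mean was 8.63 with BRD8518 (n = 2) and 8.93 ± 0.10 with DMSO (SD, n = 4), a change of −0.30 with an SE of 0.08 and a 95% confidence interval of −0.46 to −0.14 (limma, Benjamini-Hochberg adjusted p = 0.0088). Among all genes 14.5% passed in this comparison, and 1823 of 14884 had a lower change than SLC38A12. The 6 h arrays all carried 1 position letter.

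This fall was less stable than the rise of SLC7A11-AS1. Without BRD8518 replicate 1 the call was lost, at a change of −0.25 (limma, Benjamini-Hochberg adjusted p = 0.14). It kept its call without BRD8518 replicate 2 (−0.35) and without each DMSO array in turn, including replicate 2, the array least like its group (−0.34). Centring every array at its own median gave a change of −0.22 (adjusted p = 0.070), and in a fit of the 6 arrays alone it was −0.30 with an adjusted p of 0.27.

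**Figure D2:**
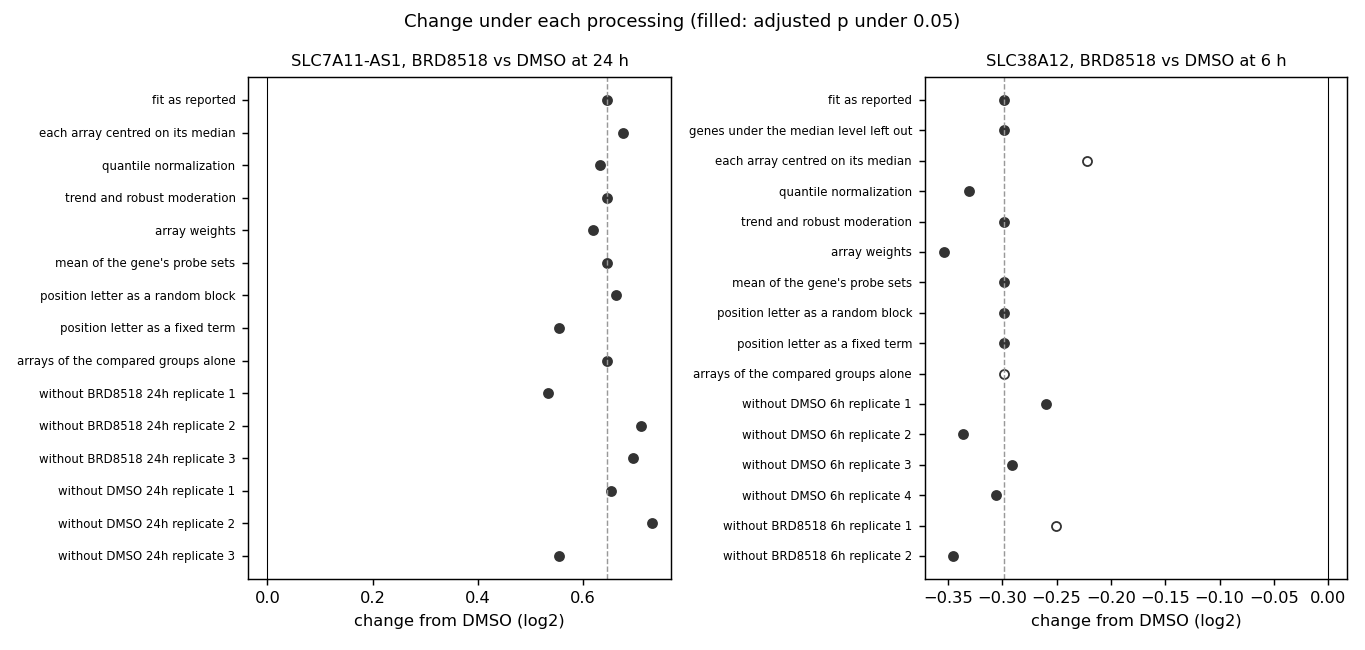
Change from DMSO (log2, horizontal axis) of SLC7A11-AS1 at 24 h of BRD8518 and of SLC38A12 at 6 h of BRD8518 under each way of processing the data; filled points had an adjusted p under 0.05, and the dashed line is the change as reported. SLC7A11-AS1 stayed between 0.53 and 0.73 with every point filled, and SLC38A12 lay between −0.35 and −0.22 with 3 open points. The filter on dim genes removed SLC7A11-AS1 from the test, so its panel has no point for that filter.

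At the other times SLC38A12 did not pass. At 1 h the BRD8518 arrays read 9.06, 9.02 and 8.97, against 8.88, 8.79 and 9.01 with DMSO, a change of 0.13 (SE 0.07; limma, Benjamini-Hochberg adjusted p = 1.0). At 24 h they read 8.83, 8.88 and 8.81, against 8.97, 8.94 and 8.86 with DMSO, a change of −0.08 with a 95% confidence interval of −0.23 to 0.07 (limma, Benjamini-Hochberg adjusted p = 0.48). The groups overlapped at both times. The BRD8518 effect at 6 h minus that at 1 h was −0.42 (SE 0.10; limma, Benjamini-Hochberg adjusted p = 0.016), in a contrast where 6.01% of all genes passed. That call was lost without BRD8518 6 h replicate 1 (−0.38), without DMSO 1 h replicate 2 (−0.37), with arrays centred (−0.33), and in a fit of these 4 groups alone. It was also lost with the position letter as a term (−0.47). In that fit the BRD8518 effect at 1 h rests on replicate 1, since replicates 2 and 3 alone carried letter C. The effect at 24 h minus that at 6 h was 0.22 (SE 0.10; limma, Benjamini-Hochberg adjusted p = 0.23), and 11.1% of all genes passed in that contrast.

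With OSM, SLC38A12 did not pass at either time. At 1 h the OSM arrays read 8.89, 8.92 and 8.86, within the DMSO range of 8.79 to 9.01, and the change was −0.0043 (SE 0.07; limma, Benjamini-Hochberg adjusted p = 1.0). At 24 h they read 9.08, 9.05 and 8.99, all above the DMSO arrays of 8.86 to 8.97. The change there was 0.12 with a 95% confidence interval of −0.03 to 0.27 (limma, Benjamini-Hochberg adjusted p = 0.41). Directly against OSM at 24 h, BRD8518 arrays were 0.20 lower (SE 0.07) with no overlap between the groups, at a limma Benjamini-Hochberg adjusted p of 0.048, in a comparison where 23.2% of all genes passed. The call was lost when any 1 of the 6 arrays was left out, with changes of −0.23 to −0.18.

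Counted together, 0 of the 2 members passed against DMSO at 1 h of BRD8518, where 0.255% of all genes did, and 0 passed with OSM at 1 h (2.84%) or 24 h (10.3%). At an unadjusted p under 0.05 in limma the count was also 0 in each of these 3 comparisons. BRD8518 and OSM at 1 h, where 2.34% of all genes differed, differed for 0 members, and the count at an unadjusted p under 0.05 was 0. The BRD8518 comparisons share DMSO arrays with those of OSM at 1 h and 24 h. The OSM effect at 24 h minus that at 1 h was 0.02 (SE 0.17) for SLC7A11-AS1 and 0.12 (SE 0.10) for SLC38A12, and 0 members passed where 3.37% of all genes did.

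**Figure D3:**
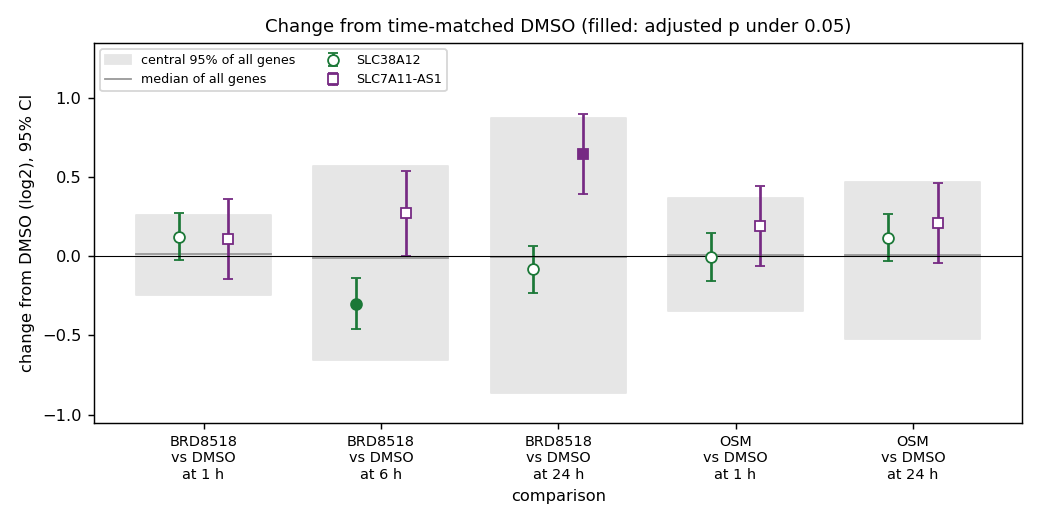
Change from time-matched DMSO (log2, vertical axis) of both genes in the 5 comparisons, with 95% confidence intervals; filled symbols had an adjusted p under 0.05, grey bars span the central 95% of all 14884 genes and the grey line is their median. SLC7A11-AS1 with BRD8518 at 24 h (0.65) and SLC38A12 with BRD8518 at 6 h (−0.30) were the 2 filled symbols.

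In DMSO alone, the arrays of 24 h and 1 h overlapped for both genes. SLC7A11-AS1 averaged 4.28 ± 0.18 at 24 h and 4.17 ± 0.11 at 1 h, and SLC38A12 averaged 8.92 ± 0.06 at 24 h and 8.89 ± 0.11 at 1 h (SD, n = 3 each). In that contrast 0 members and 0% of all genes passed in limma, and 0 members had an unadjusted p under 0.05. By mean level SLC7A11-AS1 ran from BRD8518 at 24 h (4.93) through BRD8518 at 6 h (4.54) and OSM at 24 h (4.49) to DMSO at 1 h (4.17), and only the first group stood clear of the next without overlap of arrays. By the same order SLC38A12 ran from OSM at 24 h (9.04) and BRD8518 at 1 h (9.02) down to BRD8518 at 24 h (8.84) and BRD8518 at 6 h (8.63), and only the last group stood clear of its neighbour.

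Other genes of amino acid supply are given beside the 2 members, mainly for 24 h of BRD8518. Their lists were chosen with earlier results of these data known, so their counts are a description and not an independent test. Of 20 listed amino acid response genes, targets or partners of ATF4, 14 were measured, and 11 rose, 0 fell and 3 did not pass (median 0.84, against −0.0049 over all genes). The cystathionase gene CTH, which makes cysteine, rose by 1.87 (SE 0.14), and the asparagine synthetase gene ASNS by 1.74 (SE 0.09). Of 17 measured cytosolic aminoacyl-tRNA synthetases, which charge tRNAs with amino acids, 9 rose and 0 fell (median 0.37), SARS1 by 1.00 (SE 0.07) and CARS1 by 0.91 (SE 0.10). The share of all genes that rose in this comparison was 12.1% and the share that fell 15.6%. SLC66A1, which encodes a lysosomal exporter of cationic amino acids and was the 1 gene measured of 12 carriers from other families, rose by 1.00 (SE 0.14; limma, Benjamini-Hochberg adjusted p = 5.2e-06). At 6 h of BRD8518, 8 of the 14 amino acid response genes rose and 0 fell (median 0.43), where 5.62% of all genes rose and 8.86% fell. With the 6 arrays of that time alone in the model 5 of them rose, and without DMSO replicate 3 there was 1 fall. With OSM at 24 h, 4 of 14 rose and 0 fell (median 0.15), where 4.6% of all genes rose and 5.65% fell. The count of rises was 2 without OSM replicate 1 or 2, without DMSO replicate 1 or 2, and with the position letter as a term.

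The counts that follow are for 24 h. Of all genes, 12.1% rose and 15.6% fell with BRD8518 at that time, and 4.6% rose and 5.65% fell with OSM. Enzymes that break amino acids down were mostly lower. Of 9 measured, 1 rose and 6 fell with BRD8518, where the glycine decarboxylase gene GLDC changed by −0.91 (SE 0.07), and 0 rose and 6 fell with OSM, where GLDC changed by −0.64 (SE 0.07). Without OSM replicate 3 the count of falls with OSM was 3. Amino acid synthesis enzymes split, with 3 rises and 4 falls among 14 with BRD8518 at 24 h. The rises were CTH, ASNS and SHMT2 (by 0.32, SE 0.08), and CTH and ASNS are also in the amino acid response list. Genes of lysosomal amino acid sensing for the kinase mTORC1 split too, with 6 rises and 7 falls among 24. SESN2, which is also in the amino acid response list, was among these rises. Of the 6 hepatocyte markers measured, 0 rose and 5 fell at 24 h of BRD8518 (median −0.46), and 1 rose (FGB, by 1.51) and 4 fell with OSM at 24 h (median −0.31). Markers of other cell types gave few calls, to be set against the same shares of all genes. They are not read as a result about those cell types. With BRD8518 at 24 h 1 of 5 macrophage genes (CD68, by 1.19) and 1 of 4 cholangiocyte genes (KRT19, by 0.97) rose. The endothelial, stellate and neuron genes measured did not pass there. With OSM at 24 h 2 of 5 macrophage genes (CD14 by 0.74, CD68 by 0.34) and 1 of 4 cholangiocyte genes (SOX9, by 0.21) rose, and 1 of 3 endothelial genes (PECAM1) fell by 0.43. The part of these markers in the results above was not tested. In bulk RNA, fewer cells and less RNA per cell cannot be told apart.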

How the data were processed

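The deposited values are log2 expression values that the authors computed by RMA with oligo, as the submitters' processing notes record without a version or a genome build. They were used as deposited, with 53617 probe sets and array medians of 4.89 to 4.95. The platform's annotation table gave 1 symbol for 16098 probe sets, several for 0, and left 37519 unnamed here. RefSeq (GRCh38.p14) held each of the 16098 identifiers and served for names and neighbours alone. Each gene was read by its probe set of highest mean, which left 14884 genes with no filter on level.

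A limma model (version 3.58.1, R 4.3.3) gave each of the 8 groups its mean over the 24 arrays, with empirical Bayes moderation. P-values of 2 sides were adjusted by Benjamini-Hochberg over all genes of a contrast. The number of arrays limits the precision, with a median SE of 0.11 to 0.12 for a change against DMSO. The script was tested on simulated data. Figures used matplotlib 3.10.9.

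The members, the 6 gene lists (122 genes, 76 measured) and the 6 marker lists (34 genes, 21 measured) were chosen with earlier results of these data known. Per-array values were due for members past the threshold with a log2 change of at least 0.5, and were given for both members since there were 2. For the gene lists, the genes named were taken from the up to 3 largest passing changes per direction. Not all of these were named, so a named gene need not be the largest. Alternatives were a filter on dim genes, centring, quantile normalization, trend and robust moderation, the compared arrays alone, array weights, averaging of probe sets, the letter of the position code (as a random block, or as a term), and leaving out each array. For the gene lists, centring, quantile normalization, the compared arrays alone, the letter as a term and leaving out each array were added after the data were seen.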

Additional observations from a re-analysis of the deposited data

Results flagged for a closer look

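The BRD8518 effect on SLC38A12 differed between times by its own test, at −0.42 (SE 0.10) for 6 h minus 1 h (limma, Benjamini-Hochberg adjusted p = 0.016). The effects themselves were −0.30 at 6 h and 0.13 at 1 h. The call for the difference was kept in 16 of 21 alternatives, and only 2 BRD8518 arrays were of 6 h. The cause was not tested.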

How the results depend on the processing

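Of 355 changes of the 2 members under an alternative, 322 kept their direction and their side of the threshold, 19 lost a call, 1 gained one and 13 changed sign, none of the 13 past the threshold. The number of members called was 0 at 6 h of BRD8518 (1 as reported) and 0 for the effect at 6 h minus 1 h (1 as reported) both with arrays centred and with the compared arrays alone. It was 0 for that effect with the position letter as a term as well. For BRD8518 against OSM at 24 h it was 1 (2 as reported) with arrays centred, with the letter as a term, and with dim genes left out. That filter removed SLC7A11-AS1 from the test and so left 0 at 24 h of BRD8518 (1 as reported). Array weights gave 1 for the effect at 24 h minus 6 h (0 as reported), SLC38A12 at 0.25 (limma, Benjamini-Hochberg adjusted p = 0.045). Under array weights 2866 of 14884 genes passed in that contrast, against 1649 as reported, so calls were more frequent among all genes too. Leaving out 1 array gave 0 to 1 members at 6 h, 0 to 1 for 6 h minus 1 h, and 0 to 1 for BRD8518 against OSM at 24 h. Sign changes were SLC38A12 with OSM at 1 h under array weights (0.011) and, with the letter as a term, SLC7A11-AS1 with BRD8518 at 1 h (−0.095) and for the OSM effect at 24 h minus 1 h (−0.068), and SLC38A12 (−0.038) and SLC7A11-AS1 (−0.072) in DMSO at 24 h against 1 h. Without 1 array the ranges that crossed 0 were −0.078 to 0.108 for SLC7A11-AS1 in the OSM effect at 24 h minus 1 h, −0.187 to 0.019 for SLC7A11-AS1 in BRD8518 against OSM at 1 h, −0.055 to 0.054 for SLC38A12 with OSM at 1 h, and −0.024 to 0.085 for SLC38A12 in DMSO. The causes were not tested. With the letter as a term, the BRD8518 level at 1 h came from replicate 1, since replicates 2 and 3 alone carried letter C. The shift between letters A and B came from DMSO replicate 3 of 24 h alone, so these fits are a weak adjustment. In the compared arrays alone 5 amino acid response genes rose at 6 h of BRD8518 (8 as reported), and with OSM at 24 h leaving out 1 array gave as few as 2 (4 as reported). No paired analysis was possible because the labels number no replicates across groups. Arrays give no depth, and 2 arrays for BRD8518 at 6 h limit what that comparison can show.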
